A study of Mus musculus with 6 samples.

Results

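Cytokine receptors of early thymocytes and the SOCS proteins that restrain their signals were followed in the thymus of mice labelled Rag2/pfp KO and of wild-type mice. The set was defined by name as Il2ra, Il2rb, Il2rg, Il7r, Il4ra, Kit, Il1rl1, Socs1, Socs2 and Socs3, and every probe that the platform annotation assigns to one of these 10 genes was taken. This gave 8 of the 25697 probes on the array, for 6 of the 10 genes. Il2rg, Il4ra, Kit and Il1rl1 are not analysed here. The members and the gene lists used below were chosen with earlier results of these data known, so counts over them are descriptions.

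Rag2 encodes part of the enzyme that cuts and assembles antigen receptor genes, and pfp is an older name for the perforin gene. Illumina MouseRef-8 bead arrays read total thymus RNA of 3 knockout and 3 wild-type samples, with a single array for each. The sources used here do not give strain, age, sex or the design of the mutant alleles. Nothing in the labels says that the samples were separate animals, so p-values measure only the spread between these samples. The arrays are called knockout 1 to 3 and wild type 1 to 3 below, after the replicate numbers of the labels. Whether these numbers pair the samples is not stated in the labels.

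Between 13729 and 13878 probes per array gave a signal above background (detection p under 0.05), and median signals per array lay between 172 and 186 units. Levels are normalized log2 signals, and every difference is knockout minus wild type on that scale. Precision is limited by the small number of arrays, 3 in each group. The Rag2 probe read 6.98, 6.73 and 7.88 in the knockout against 9.17, 8.17 and 8.78 in the wild type (difference −1.51, adjusted p = 0.0579, and 0.0241 with the replicate number as a block). No source used here places this probe relative to the deletion, so it does not check the labels. Knockout 3 and wild type 2 stood apart from the other arrays in Xist and Eif2s3y. Eif2s3y, a Y-linked gene, read 9.47 and 9.40 on these arrays and 4.56 to 4.95 on the others. Xist, an X-linked gene, read 5.05 and 4.63 there, not above background, and 8.89 to 9.33 on the others (ILMN_3022688). Leaving out knockout 3 and wild type 2 together is therefore among the alternatives. Of the tested marker genes, 6 of 14 for early thymocytes rose and 7 of 9 for double-positive thymocytes fell in the knockout (values below).

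Thymocytes before the expression of CD4 and CD8, the double-negative stages, depend on interleukin-7. Its receptor joins the alpha chain encoded by Il7r to the common gamma chain and signals through the kinases JAK1 and JAK3 to STAT5. Il2ra encodes the interleukin-2 receptor alpha chain, CD25, which serves as the surface marker of the middle double-negative stages. SOCS proteins are made in response to cytokine signals and inhibit the receptors or their kinases. Loss of the recombinase is known to stop thymocyte development at the double-negative stage.

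Of the 8 probes, 7 were above background on at least 3 arrays and entered the limma fit over 14097 probes. The probes for Il2ra, Socs2 and Socs3 were higher in the knockout at an adjusted p under 0.05, and no member probe was lower (3 higher and 0 lower also at an unadjusted p under 0.05). Among all tested probes, 5.48% were called higher and 5.58% lower. For these 3 genes every knockout array lay above every wild-type array, which held for 15.9% of all tested probes. No member probe had every knockout array below every wild-type array, against 17.8% of all tested probes. Il7r probe ILMN_2975500 did not rise above background on any of the 6 arrays (levels 4.58 to 4.96) and is not used further. Without knockout 1, knockout 3, wild type 1 or wild type 3 the only member called was Il2ra.

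**Figure D1:**
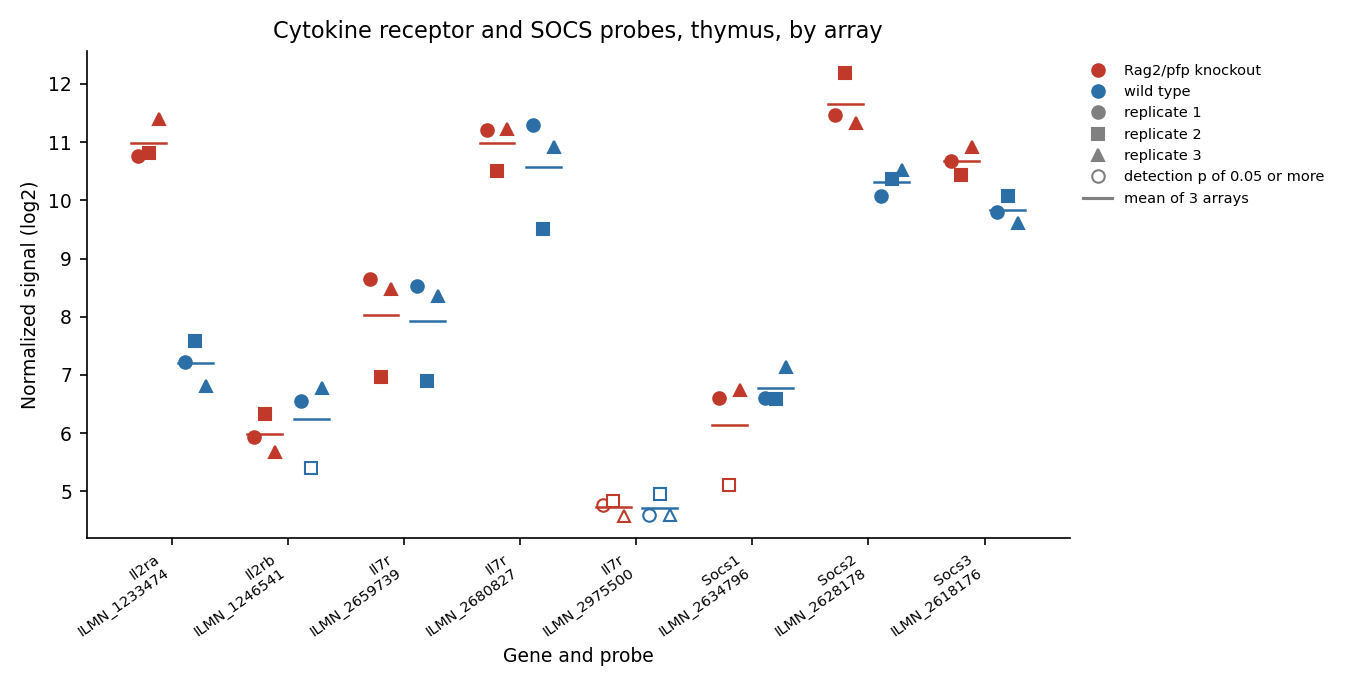
Normalized log2 signal (vertical axis) of the 8 member probes (horizontal axis) on the 6 arrays, knockout in red and wild type in blue; symbols give the replicate number, open symbols a detection p of 0.05 or more, and short lines the mean of 3 arrays. The groups are apart for Il2ra, Socs2 and Socs3 and overlap for Il2rb, Il7r and Socs1, and both measurable Il7r probes are lowest on the replicate 2 arrays.

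Il2ra was the member with the largest difference. The knockout arrays read 10.77, 10.81 and 11.39 for its probe (ILMN_1233474), and the wild-type arrays read 7.22, 7.59 and 6.81. All 6 arrays were above background, and the lowest knockout array exceeded the highest wild-type array by 3.18. The means were 10.99 ± 0.34 and 7.20 ± 0.39 (SD, n = 3 each), a difference of 3.79 (SE 0.27, adjusted p = 0.00226). This is a 13.8-fold higher signal with a 95% interval of 8.74 to 21.7. Only 3 of the 14097 tested probes rose further. In this whole-tissue RNA a change in the number of cells that carry a transcript cannot be told apart from a change in the amount per cell. The call held without any single array (differences of 3.58 to 3.99, adjusted p up to 0.0205). Without background correction the difference was 2.99 (adjusted p = 0.00231). Il2ra lies on chromosome 2, as Rag2 does, with 324 tested genes between them in the RefSeq gene order, and whether linkage to the targeted locus bears on its signal was not tested.

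The genes whose levels followed Il2ra most closely over the 6 arrays, by Pearson correlation among 9843 tested genes, were Xk (r = 0.9983), Notch1 (0.9982), Rab2a (0.9982), Chsy1 (0.9981) and Ccno (0.9980). With 3 arrays in each group these coefficients largely restate the step between the genotypes, and they are given as a description. Notch1, the receptor whose signal directs progenitors to the T cell fate, read 11.63, 11.53 and 11.89 in the knockout against 10.19, 10.34 and 10.09 in the wild type. Xk, a membrane transporter gene, rose by 0.89 and Chsy1, a chondroitin synthase gene, by 1.02 (adjusted p = 0.0187 and 0.0133). Ccno, a cyclin gene, rose by 1.14 (adjusted p = 0.00912). Rab2a, a GTPase of vesicle transport, differed by 0.54 (adjusted p = 0.0552, and 0.0417 with the replicate number as a block).

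Il2rb encodes the beta chain shared by the receptors for interleukin-2 and interleukin-15. Its probe (ILMN_1246541) read 5.94, 6.33 and 5.68 in the knockout against 6.55, 5.40 and 6.78 in the wild type. These are dim signals, and wild type 2 was not above background. The groups overlapped, and the difference of −0.26 (SE 0.39, adjusted p = 0.716) has a 95% interval of −1.21 to 0.69. As a fold of knockout over wild type the interval runs from 0.432 to 1.62. Without wild type 3 the difference was 0.01, and with array weights it was −0.72 (adjusted p = 0.0163). The changes of the alpha and beta chain probes were not tested against each other.

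Il7r did not separate the genotypes. The brighter probe (ILMN_2680827) read 11.21, 10.50 and 11.23 in the knockout against 11.29, 9.50 and 10.92 in the wild type. For the other probe (ILMN_2659739) the knockout arrays read 8.65, 6.97 and 8.48 and the wild-type arrays 8.53, 6.90 and 8.36. In both genotypes, and with both probes, the replicate 2 array was the lowest. The differences were 0.41 (SE 0.49, adjusted p = 0.641) and 0.10 (SE 0.61, adjusted p = 0.932), with 95% intervals of −0.78 to 1.60 and −1.37 to 1.57. For the dimmer probe the ranges within a genotype were 1.68 in the knockout and 1.63 in the wild type. Between arrays of the same replicate number, which the labels do not state to be pairs, it differed by 0.12, 0.06 and 0.12. The same pairwise differences of the brighter probe were −0.08, 1.00 and 0.30. Without wild type 2 both estimates were below 0 (−0.13 and −0.42), and without knockout 3 and wild type 2 together they were −0.25 and −0.63, none of them past the threshold.

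The arrays low in Il7r were also those with the highest signals of heart, muscle and fat genes. The mean level of 6 heart and skeletal muscle genes was 11.60 on knockout 2 and 11.49 on wild type 2, and 9.70, 4.78, 5.01 and 6.59 on knockout 1, knockout 3, wild type 1 and wild type 3. For 5 fat genes it was 13.14 and 13.05 on the replicate 2 arrays and 12.27, 8.0, 8.77 and 10.33 on the others in the same order. Knockout 1 lay next below the replicate 2 arrays in both lists, and its Il7r probes read 11.21 and 8.65. None of the heart, muscle or fat genes was called between genotypes (limma, 0 of 11 tested, 0 also at an unadjusted p under 0.05). Their median differences were 1.16 for heart and muscle and 0.72 for fat. With this spread within genotypes the test cannot show equal content. Endothelial, fibroblast and erythroid genes were also highest on the replicate 2 arrays. Low levels on these arrays were not particular to Il7r. Knockout 2 and wild type 2 were also lowest in their genotype for double-positive thymocyte genes (8.16 and 11.44). So they were for mature T cell genes (7.83 and 10.15) and cortical epithelium genes (10.89 and 8.81). For early thymocyte and B cell genes wild type 2 was not the lowest. The part of tissue content in the Il7r levels was not tested.

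**Figure D2:**
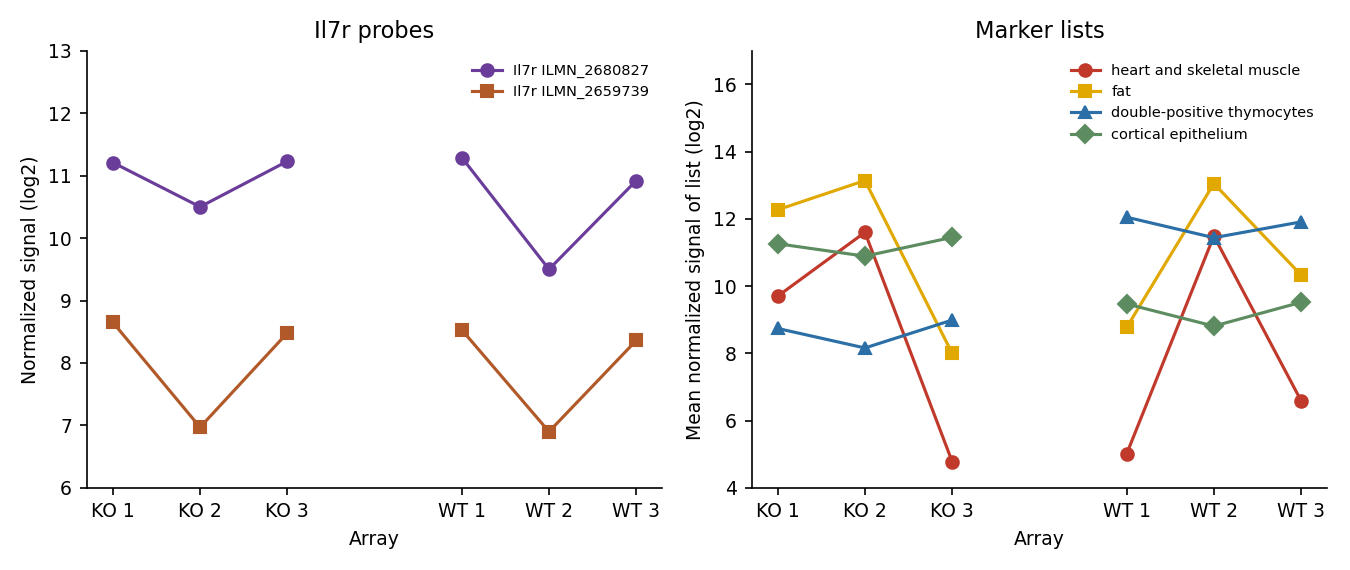
Left, normalized log2 signal of the measurable Il7r probes on each array (KO, knockout; WT, wild type); right, mean normalized log2 signal of marker genes of heart and muscle, fat, double-positive thymocytes and cortical epithelium. Lines join arrays of a genotype only to guide the eye. Il7r is lowest on KO 2 and WT 2, where heart and fat genes are highest, while double-positive and cortical genes separate the genotypes.

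Among the SOCS genes, Socs2 showed the larger rise. Socs2 is induced through STAT5 and is best known for limiting growth hormone signals. Its probe (ILMN_2628178) read 11.47, 12.19 and 11.33 in the knockout against 10.07, 10.37 and 10.52 in the wild type. The groups were apart by 0.81, with knockout 2 the highest array. The means of 11.66 ± 0.46 and 10.32 ± 0.23 (SD, n = 3 each) differed by 1.34 (SE 0.27, adjusted p = 0.0306), or 2.53-fold with a 95% interval of 1.61 to 3.98. Leaving out 1 array kept the rise between 1.08 and 1.51. The call was lost without knockout 1 (adjusted p = 0.0980), knockout 3 (0.0512), wild type 1 (0.120) or wild type 3 (0.0999). Socs2 lies on chromosome 10, as does the perforin gene Prf1, with 222 tested genes between them, and linkage was not tested here either.

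Socs3, which inhibits receptors of the gp130 family and their JAK kinases, rose less. Its probe (ILMN_2618176) gave 10.68, 10.44 and 10.91 in the knockout against 9.80, 10.07 and 9.61 in the wild type. The groups did not overlap, and their gap was 0.37. The difference was 0.85 (SE 0.20, adjusted p = 0.0467), a 1.80-fold higher signal with a 95% interval of 1.29 to 2.52. This is the weakest of the 3 calls. It was lost without knockout 1 (adjusted p = 0.158), knockout 3 (0.119), wild type 1 (0.165) or wild type 3 (0.184), and with the replicate number as a block (0.0504). Between arrays of the same number the rise was 0.88, 0.37 and 1.30.

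Socs1, an inhibitor of JAK kinases with a non-redundant part in restraining interferon and common gamma chain signals in T cells, was not called. The knockout arrays read 6.60, 5.10 and 6.74 (ILMN_2634796) and the wild-type arrays 6.60, 6.58 and 7.14. Knockout 2 was not above background, and the other arrays overlapped between the genotypes. The difference of −0.63 (SE 0.46, adjusted p = 0.436) had a 95% interval of −1.74 to 0.49 and was −0.10 without knockout 2. Socs2 and Socs3 thus passed the threshold and Socs1 did not, a contrast that was not itself tested.

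**Figure D3:**
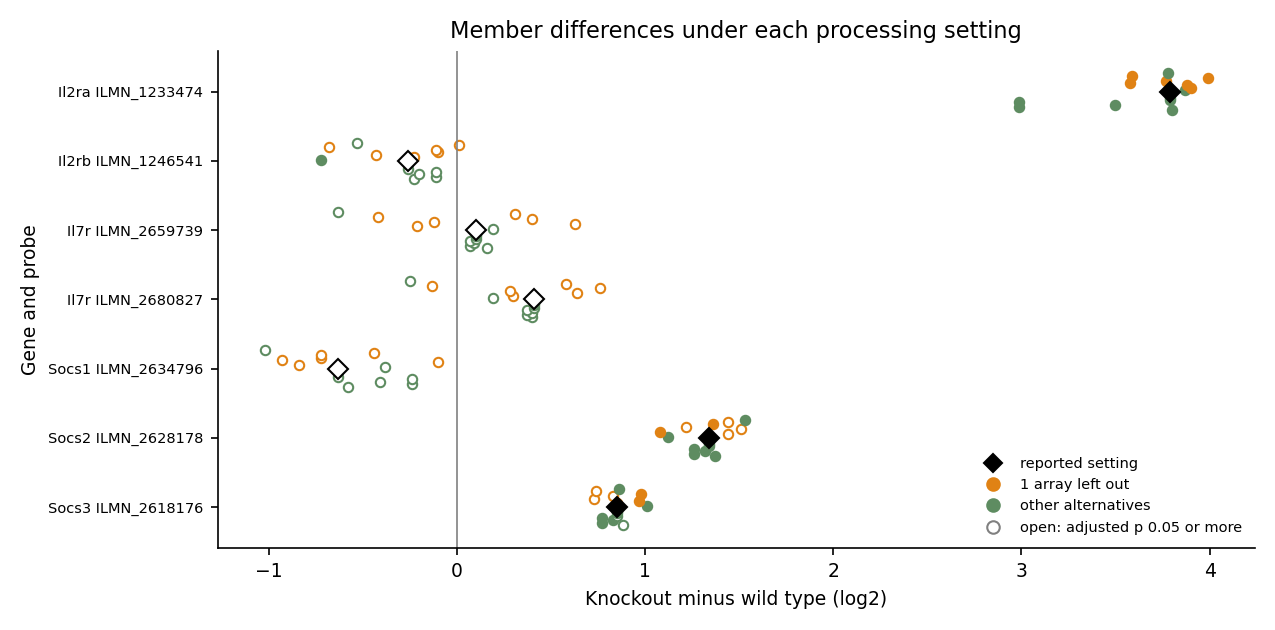
Knockout minus wild type (log2, horizontal axis) for the 7 tested member probes (vertical axis) under the reported setting (black diamonds), with 1 array left out (orange) and under the other alternatives (green); filled symbols have an adjusted p under 0.05. Il2ra is filled throughout between 2.99 and 3.99, Socs2 and Socs3 stay above 0 with filled and open symbols, and the Il7r estimates fall on both sides of 0.

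Promoter window sequences of member genes are shown because STAT factors are known to bind the palindromic motif TTCNNNGAA, which reads the same on both strands. RefSeq promoter windows of the build GRCm38.p6 held 4 of the 6 member genes with probes. The 250 bases before the start used for each window were searched. The motif occurs in 7.02% of the 32851 windows of the same length in that table. It occurs once in the window of Socs3, from 154 to 146 bases before the start used. In the window of Il7r it occurs once, from 142 to 134 bases before the start used. The Socs3 window lies wholly inside the annotated span of its gene (chr11:117966079-117970336), so this motif is not upstream of the whole gene. The Il7r window reaches into the span of its gene, which ends at 9529941. The Il2ra and Socs1 windows do not contain these letters, which says nothing about sites elsewhere. Among the genes shown, Il2ra and Socs3 were called higher and Il7r and Socs1 were not. Capitals mark the motif.
Il2ra (chr2:11642542-11642791, plus strand): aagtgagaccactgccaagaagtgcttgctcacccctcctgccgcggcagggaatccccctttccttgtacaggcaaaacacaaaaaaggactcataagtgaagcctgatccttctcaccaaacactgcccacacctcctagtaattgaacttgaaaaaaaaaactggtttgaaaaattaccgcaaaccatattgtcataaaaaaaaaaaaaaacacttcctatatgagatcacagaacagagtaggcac
Socs3 (chr11:117969367-117969616, minus strand): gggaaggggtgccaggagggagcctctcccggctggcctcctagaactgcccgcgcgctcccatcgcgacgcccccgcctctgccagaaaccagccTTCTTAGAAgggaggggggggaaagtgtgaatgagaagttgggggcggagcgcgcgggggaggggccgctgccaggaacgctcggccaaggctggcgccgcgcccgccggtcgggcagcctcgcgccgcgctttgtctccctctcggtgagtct
Il7r (chr15:9529877-9530126, minus strand): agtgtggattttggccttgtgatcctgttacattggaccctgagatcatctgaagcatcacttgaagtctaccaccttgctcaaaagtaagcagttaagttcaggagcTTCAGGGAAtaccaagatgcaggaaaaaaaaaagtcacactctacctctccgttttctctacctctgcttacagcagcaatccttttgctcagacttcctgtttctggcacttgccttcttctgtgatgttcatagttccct
Socs1 (chr16:10785537-10785786, minus strand): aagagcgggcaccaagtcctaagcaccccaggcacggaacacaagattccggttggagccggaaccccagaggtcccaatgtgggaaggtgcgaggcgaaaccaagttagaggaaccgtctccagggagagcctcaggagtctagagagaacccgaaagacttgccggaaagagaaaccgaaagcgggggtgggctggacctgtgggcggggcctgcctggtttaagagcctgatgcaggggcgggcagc

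Ligands of these receptors come from thymic stroma, as Il7 and Kitl do, or from blood cells. Of 10 ligand genes listed, 6 had a tested probe. This list too was chosen with earlier results known, so its counts are descriptive. Il7, Kitl and Il15 rose and none fell (0 also at an unadjusted p under 0.05), with a median difference of 0.52 against 0.01 over all 9849 tested genes, of which 6.09% were called higher and 5.57% lower. Il7, the cytokine bound by the Il7r product, read 12.25, 11.73 and 12.40 in the knockout against 10.35, 9.51 and 10.39 in the wild type. That is a 4.11-fold higher signal (2.04, SE 0.31, adjusted p = 0.0147). Kitl, the ligand of the Kit receptor on the earliest progenitors, read 9.01, 9.14 and 8.63 against 7.09, 7.99 and 7.32 (1.46, SE 0.28, adjusted p = 0.0268). The signal of another Kitl probe stayed at background throughout. Il15, whose receptor uses the Il2rb chain, rose by 0.85 (SE 0.18, adjusted p = 0.0376). Of the other Il15 probes 1 rose by 0.79 (adjusted p = 0.0407) and 1 differed by 0.27 (adjusted p = 0.373). Il33, the ligand of the receptor encoded by Il1rl1, differed by 0.19 (adjusted p = 0.860), a value that was 1.06 without knockout 3 and wild type 2 together (adjusted p = 0.0655), and Il13 by −0.25 (adjusted p = 0.464).

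The calls of all 3 ligands depended on single arrays. Without knockout 1, wild type 1 or wild type 3, Il7 had adjusted p-values of 0.0751, 0.0578 and 0.0601. Kitl missed it without any single array except wild type 2 (adjusted p up to 0.116), and Il15 without any except knockout 2 (adjusted p up to 0.151). Il15 had an adjusted p of 0.0753 without knockout 3 and wild type 2 together, and of 0.0629 with median centring. All 3 kept a positive difference of at least 0.70 throughout. Genes of the cortical epithelium, a main source of thymic cytokines, were higher in the same arrays: 8 of 9 tested genes rose and 0 fell (0 also at an unadjusted p under 0.05), with mean list levels of 10.89 to 11.45 in the knockout and 8.81 to 9.52 in the wild type. Dll4, a Notch ligand of that epithelium, rose by 2.30 (adjusted p = 0.00406). The part of epithelial content in the ligand signals was not tested.

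Below the receptors, few genes passed the test, and more did with the replicate number as a block. The labels do not say that the numbers pair the samples, and deviations of the number 1 arrays correlated at 0.104. Knockout 3 correlated more with wild type 1 (0.727) than with wild type 3 (0.559). Over all 14097 tested probes the block called 1605 higher and 1703 lower, against 772 and 787 without it. None of the 9 tested JAK and STAT genes was called by limma (0 also at an unadjusted p under 0.05 and 0 with the block), with a median difference of 0.04. Stat3 differed by 0.30 (adjusted p = 0.379) and Jak2 by 0.04 (adjusted p = 0.902). Of 16 other cytokine receptors and receptor subunits only Ifngr2, a chain of the interferon gamma receptor, was called, with a difference of −1.11 (SE 0.26, adjusted p = 0.0480). Its other probes differed by −0.86 and −1.04 (adjusted p = 0.0473 and 0.0317). Ifngr1, the partner chain, differed by 0.14 (adjusted p = 0.775), and the interleukin-27 receptor gene Il27ra by −0.38 (adjusted p = 0.553), or −0.82 without knockout 3 and wild type 2 together (adjusted p = 0.122). With the block, Il12rb1, an interleukin-12 receptor chain, was also lower (−1.19, adjusted p = 0.0169, and 0.0669 without the block). Il13ra1, an interleukin-13 receptor chain, was then higher (0.95, adjusted p = 0.0133, and 0.134 without the block). Ifngr2 passed without wild type 2 and in no other fit that left out 1 array (adjusted p up to 0.176), and it missed the threshold with median centring (0.0593) and without the detection filter (0.0671).

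Of 12 other inhibitors, Ptprc, which encodes the phosphatase CD45, was called without the block, and 6 were called lower and 0 higher with it. Over all 14097 tested probes, 1703 were called lower with the block and 787 without it. Ptprc read 7.25, 6.62 and 7.14 in the knockout against 8.59, 7.91 and 8.79 in the wild type (−1.43, SE 0.30, adjusted p = 0.0331). Cish, a SOCS family member and STAT5 target, read 12.50, 12.56 and 12.34 in the knockout against 10.87, 12.25 and 10.90 in the wild type. The groups did not overlap, but wild type 2 lay close to the knockout arrays, and the difference of 1.12 (SE 0.39) had an adjusted p of 0.123. Without wild type 2 it was 1.58 (adjusted p = 0.00791), and without knockout 3 and wild type 2 together 1.65 (adjusted p = 0.0152). The phosphatase gene Ptpn11 differed by 0.13 (adjusted p = 0.590). The 5 inhibitors gained with the block were Cbl, a ubiquitin ligase gene (−1.04, adjusted p = 0.0143), Ptpn6, the gene of the phosphatase SHP-1 (−0.75, 0.0225), Pias2 (−0.59, 0.0332) and Pias4 (−0.56, 0.0408), which bind STAT factors, and Socs4 (−0.58, 0.0433). Ptprc missed the threshold without any single array but wild type 2 (adjusted p up to 0.127).

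Genes that respond to these cytokines moved in no common direction. Over all tested genes 6.09% were called higher and 5.57% lower, and the block called 1605 higher and 1703 lower of 14097 probes. Of the 11 tested here, Bcl2l1 and Cdkn1b fell and none rose without the block. With it the same 2 fell and Bcl2 and Osm rose. Without it there were 3 higher and 3 lower at an unadjusted p under 0.05 and a median difference of 0.22. Bcl2l1, which encodes the survival protein BCL-XL, read 6.03, 6.10 and 5.80 in the knockout against 7.83, 7.42 and 7.59 in the wild type (−1.63, SE 0.18, adjusted p = 0.00635), and it passed without any single array. Its knockout signals were near background, and without background correction the difference was −0.78 (adjusted p = 0.0112). Its other probes were above background on all wild-type arrays and on no knockout array, so they entered the fit only through the wild type. Their signals were at least 1.55-fold and at least 1.95-fold lower in the knockout. These bounds set the wild-type mean against the lowest signal that counted as above background. Cdkn1b, an inhibitor of cyclin-dependent kinases, fell by 1.32 (SE 0.25, adjusted p = 0.0260). When knockout 1, knockout 3, wild type 1 or wild type 3 was dropped it no longer passed (adjusted p up to 0.103). Mcl1, another survival gene, differed by −0.38 (adjusted p = 0.201), and the cyclin gene Ccnd2 by 1.10 (adjusted p = 0.197), or 0.52 without wild type 2 (adjusted p = 0.0768). Bcl2, a survival gene, differed by 0.86 (adjusted p = 0.147, and 0.0162 with the block). Its 4 other tested probes differed by 1.00, 0.82, −0.10 and −0.22, and of these the first passed with the block (adjusted p = 0.0115). The probe at −0.10 was dim and not above background on wild type 2. Osm, which encodes the cytokine oncostatin M, differed by 0.69 (adjusted p = 0.112, and 0.0324 with the block). Among 9 kinases and adaptors Fyn, a kinase of the Src family, was the only gene called without the block (−1.18, SE 0.22, adjusted p = 0.0266). Its other tested probe was dim, with wild type 1 not above background, and differed by −0.04 (adjusted p = 0.910). Of the fits that dropped 1 array, Fyn passed in that without wild type 2, with adjusted p-values up to 0.118 in the others. With the block, Pik3cd, a subunit gene of phosphoinositide 3-kinase, was called as well (0.55, adjusted p = 0.0491, and 0.420 without it). Shc1 differed by 0.17 (adjusted p = 0.528) and Pik3r1 by −0.37 (adjusted p = 0.277).

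Over the 6 pathway lists, 3 of 63 tested genes were higher (4.76%) and 5 lower (7.94%), near the shares of 6.09% and 5.57% among all genes. With the replicate number as a block, 7 were higher and 11 lower. Calls over all 14097 tested probes also increased with the block, to 1605 higher and 1703 lower. Among the pathway genes, leaving out knockout 1, wild type 1 or wild type 3 left 0 higher and 1 lower in each case. Leaving out knockout 3 left 1 and 1.

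**Figure D4:**
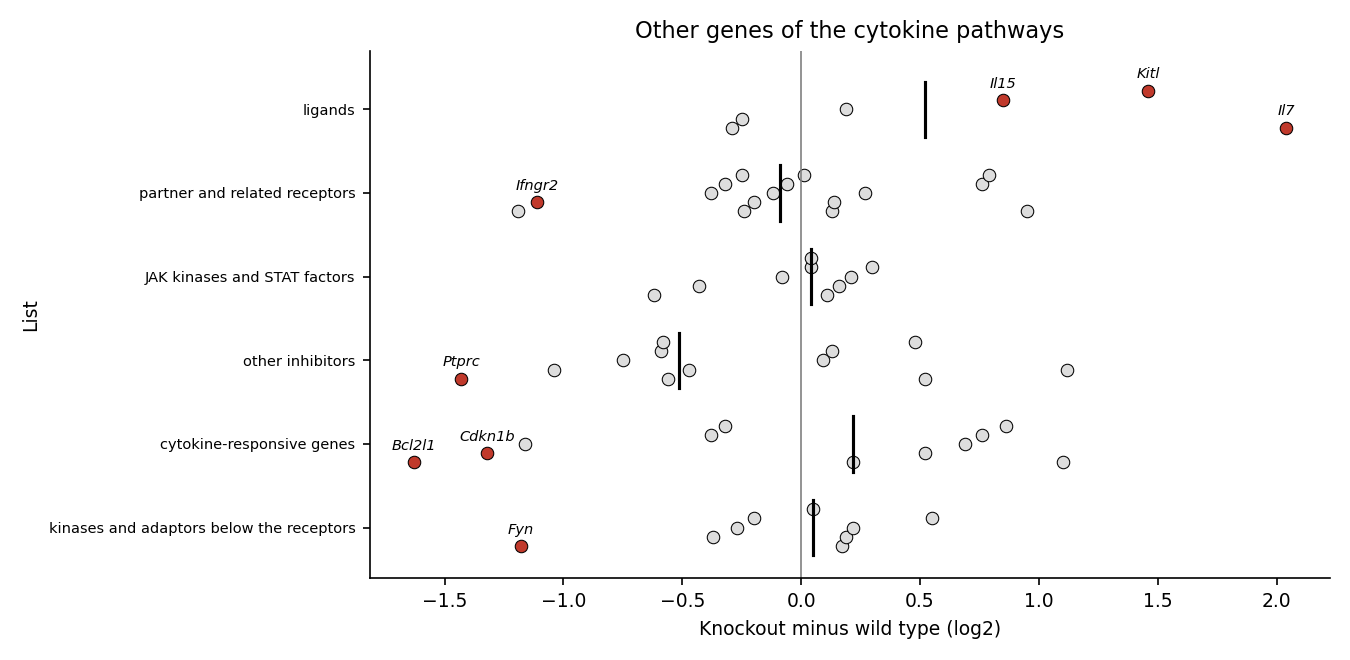
Knockout minus wild type (log2, horizontal axis) for the 63 tested genes of 6 pathway lists (vertical axis), 1 point per gene, red and named where the adjusted p was under 0.05, with a black bar at each list's median. The ligands Il7, Kitl and Il15 lie to the right, and no JAK or STAT gene was called; colours follow the fit without the replicate block.

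Several cell types carry the receptors studied here, and the signals of their markers were read on the same arrays. The marker lists were chosen with earlier results of these data known, so their counts are descriptive. Over all 9849 tested genes, 6.09% were called higher and 5.57% lower. At an unadjusted p under 0.05 (limma), 1412 of these genes were higher and 1403 lower. Of 14 genes of early and double-negative thymocytes, 6 rose and 0 fell (6 and 2 at an unadjusted p under 0.05). Their mean level was 9.69 to 9.95 in the knockout and 8.93 to 9.06 in the wild type, and the Notch target Dtx1 rose by 3.07 (adjusted p = 8e-04). Of 9 genes of double-positive thymocytes 7 fell, among them the CD8 beta chain gene Cd8b1 (−7.32, adjusted p = 0.00141), and the list level was 8.16 to 8.99 against 11.44 to 12.05. Mature T cells, which carry Il7r, had 5 of 7 tested markers lower and 0 higher, with list levels of 7.83 to 8.37 in the knockout and 10.15 to 10.94 in the wild type. Cd6, a T cell surface receptor gene on that list, fell by 4.12 (adjusted p = 0.000933). Of 4 tested B cell genes 3 fell, with list levels of 6.19 to 6.47 against 9.32 to 9.58. Cd79a, which encodes a chain of the B cell receptor, was above background on no knockout array and at least 15.8-fold lower. It entered the fit only through the wild-type arrays. Regulatory T cells also express Il2ra: 3 of their 7 tested markers fell and 0 rose (3 lower and 2 higher at an unadjusted p under 0.05), and their list levels overlapped (7.14 to 8.03 against 7.49 to 8.83). Icos, a costimulatory receptor gene on that list, differed by −2.02 (adjusted p = 0.0255) and missed the threshold without any single array except wild type 2 (adjusted p up to 0.105).

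Markers of innate cells that use these receptors were also read. The share of all tested genes called higher was 6.09%. Of 7 tested genes of group 2 innate lymphoid cells 3 rose, and the list level was 7.60 to 8.01 in the knockout and 7.07 to 7.15 in the wild type. Cysltr1, a leukotriene receptor gene on that list, rose by 1.48 (adjusted p = 0.01). Dropping knockout 1, wild type 1 or wild type 3 ended that call (adjusted p up to 0.0650). The probe for their cytokine gene Il5 was not above background on enough arrays to be tested. Of 9 mast cell and basophil genes 1 rose, the protease gene Cpa3 (1.92, adjusted p = 0.0398, and 0.0503 with the replicate number as a block). Dropping knockout 1, knockout 3, wild type 1 or wild type 3 raised the adjusted p of Cpa3 to between 0.107 and 0.145, and it was 0.0642 without the detection filter. The mast cell list levels overlapped, at 7.16 to 8.40 in the knockout and 6.40 to 8.04 in the wild type. Of 8 natural killer and innate-like T cell genes 1 rose, Sox13 (1.67, adjusted p = 0.0129), and the list level was 8.65 to 9.28 against 7.77 to 8.63. Sox13 no longer passed when knockout 1, wild type 1 or wild type 3 was dropped (adjusted p up to 0.0695). Ncr1, Gzma, Gzmb and Eomes of that list had too few arrays above background to be tested. The part of any of these cell types in the Il2ra, Socs2 and Socs3 signals was not tested.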

How the data were processed

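Probe signals were deposited by the authors as linear intensities that were not normalized between arrays, per the file headers and the values. Each signal was deposited with a detection p-value, per the file headers. A second deposited table held log2 values of the authors, which differed from log2 of the quantile-normalized signals by at most 0.005. Its columns shared a median of 7.48 with no centring on 0, and rose with the signal; no source used here gives the order of steps. GenomeStudio 2011.1 is named in the submitters' processing notes.

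The neqc function of limma 3.58.1 (R 4.3.3) took the background from the detection p-values, added an offset of 16, applied quantile normalization and took log2. Tested with lmFit and eBayes, without a block, were probes with a detection p under 0.05 on 3 or more arrays, and p-values were adjusted over all 14097 tested probes (Benjamini-Hochberg, threshold 0.05). The fit was tested on simulated data. Genes outside the members (9849 genes tested in all) were read from the tested probe of highest mean. Of all probes 23978 carried 1 symbol, 0 several and 1719 none, and 23962 matched the reference by gene ID. Figures used Python 3.11.15 and matplotlib 3.10.9.

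The members and the gene lists were chosen with earlier results of these data known. Named were all member probes, per pathway list up to 4 called genes with the largest difference and up to 2 uncalled genes with the highest mean, up to 2 called genes per cell type list, and 5 genes most correlated with Il2ra. Rag2, Eif2s3y, Xist, other probes of named genes and the untested markers Il5, Ncr1, Gzma, Gzmb and Eomes, and the genes gained with the replicate block (Il12rb1, Il13ra1, Cbl, Ptpn6, Pias2, Pias4, Socs4, Bcl2, Osm and Pik3cd) were added after their values were seen.

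Deviations from the genotype means correlated between arrays of the same replicate number at 0.104, 0.750 and 0.559. Knockout 3 correlated more with wild type 1 (0.727) and knockout 1 slightly more with wild type 3 (0.108). Eif2s3y read 4.58 on knockout 2 and 9.40 on wild type 2, and 9.47 on knockout 3 and 4.62 on wild type 3. The labels do not say that the numbers pair the samples. The numbers were taken as pairs in the fit with the replicate block, which is an alternative to the reported fit. They were also used for the same-number differences given for Il7r and Socs3. Alternatives were median centring, an offset of 50, no background correction, the authors' log2 values, no detection filter, detection p under 0.01 on all 6 arrays, the replicate block, a variance trend with robust moderation, array weights (fitted gene by gene), the probe with the largest spread, leaving out each array, and leaving out knockout 3 and wild type 2 together. The headers name no chip, so a BeadChip block could not be fitted.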

Additional observations from a re-analysis of the deposited data

How the results depend on the processing

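Il2ra was called in all 16 alternatives (2.99 to 3.99). Socs2 was called in 12 and Socs3 in 9 of 16, both always higher. Besides the fits without 1 array, Socs3 missed the threshold with median centring (adjusted p = 0.0646), without the detection filter (0.0538) and with the replicate block (0.0504). Leaving out 1 array gave 1 to 3 member probes called higher and 0 lower, 0 to 4 pathway genes higher and 1 to 6 lower, and 76 to 973 of all probes higher and 127 to 1113 lower, against 772 and 787 with all arrays. The replicate block called 1605 probes higher and 1703 lower, and 7 and 11 pathway genes; among the genes named by the rule it ended the calls of Socs3 and Cpa3, added that of Rab2a and changed no other, and outside the rule it added Rag2 and the genes given as gained. Array weights called 3421 probes higher and 3745 lower, 16 and 21 pathway genes, and 1 member probe lower (Il2rb). Leaving out knockout 3 and wild type 2 together called 1285 higher and 1335 lower, and 5 pathway genes higher. The cause of these changes was not tested.

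Signs turned only for probes that were not called in the reported fit, where their differences ran from −0.26 to 0.41. Without 1 array, Il7r ILMN_2659739 ran from −0.42 to 0.63 (−0.21, −0.12 and −0.42 without knockout 1, knockout 3 and wild type 2) and was −0.63 without knockout 3 and wild type 2 together. Il7r ILMN_2680827 ran from −0.13 (without wild type 2) to 0.76 and was −0.25 without both. Il2rb ran from −0.68 to 0.01 (without wild type 3). Il33 ran from −0.16 to 0.76 (−0.14, −0.16 and −0.03 without knockout 2, wild type 1 and wild type 3) and was 1.06 without both. Jak2 ran from −0.08 to 0.16 (−0.02 and −0.08 without knockout 3 and wild type 2) and was −0.15 without both. Ifngr1 ran from −0.02 (without knockout 3) to 0.42 and was −0.01 without both. For Il2rb, Socs1 and Il7r ILMN_2975500, signals near background limit what can be seen.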
